A study of Mus musculus with 9 samples.

Results

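The genes described here encode the proteins of the cytosolic ribosome in mouse liver. They were chosen by symbol alone: Rpl or Rps followed by a number (with an optional a, l or x), plus Rplp0, Rplp1, Rplp2 and Rpsa, with a mean of at least 10 normalized counts over the 9 libraries. That left 78 of the 19944 genes in the table, namely 43 of the large subunit, 32 of the small subunit and 3 of the P stalk. All 78 passed the filter on low values, since that filter is part of the rule. The name pattern matched 80 genes, and the 2 left out were Rpl24, at a mean of 8.72, and Rpl32l, at a mean of 1.55. The members nearest above the limit were Rps10, at a mean of 42.5, and Rps4l, at 167. A further 147 rows carry a ribosomal protein name with the suffix -ps and were not members.

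The study compared livers of male mice 60 days old, labelled FVB, with 3 libraries in each of 3 groups. Wild-type mice are WT, mice without Snd1 are KO, and mice whose Snd1 carries a Tudor domain mutation, a knock-in, are KI. SND1 binds RNA and carries a Tudor domain that reads methylated arginine. Its purpose, per the series' design text, was to learn what that domain does for the liver transcriptome, and both altered genotypes were therefore set against WT. All mice had normal chow in one modified-barrier housing, and RNA was taken from liver tissue, although the labels name the cell type hepatocyte. The labels give neither the promoter, if any, nor the design of the Snd1 alleles, and, while each library carries a number of its own, do not say whether that number marks an animal, so p-values measure the spread between these libraries only. Libraries are named below by group and title number, such as KO_1.

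Each ribosome holds 1 copy of nearly every ribosomal protein, and the genes for them are among the most strongly transcribed of any growing or secreting cell. Their mRNAs start with a C followed by a run of pyrimidines, the terminal oligopyrimidine (TOP) motif, through which mTORC1 and LARP1 set their translation and stability. In liver the output of these genes follows feeding and growth signals, and much of their control acts on translation, which mRNA levels do not show.

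The start sites of members that the results turn on are shown first, because the TOP motif is what these mRNAs are best known for. Each window runs from 10 bases before to 20 bases from the RefSeq start, 5′ to 3′, on build GRCm38.p6. Capitals mark a C followed by at least 4 C or T that begins within 5 bases of that start. Where RefSeq lists several starts, one with such a run is shown if there is one.
Rpl35a, chr16:33056472-33056501, plus strand: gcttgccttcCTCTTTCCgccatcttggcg
Rps18, chr17:33955646-33955675, minus strand: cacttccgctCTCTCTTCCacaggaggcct
Rplp2, chr7:141447641-141447670, plus strand: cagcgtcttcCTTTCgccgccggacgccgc
Rps6, chr4:86857348-86857377, minus strand: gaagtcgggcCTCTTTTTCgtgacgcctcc
Rps10, chr17:27635225-27635254, minus strand: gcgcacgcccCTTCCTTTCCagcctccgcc
Rpl13a, chr7:45128726-45128755, minus strand: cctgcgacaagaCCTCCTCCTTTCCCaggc
Rpl22, chr4:152325716-152325745, plus strand: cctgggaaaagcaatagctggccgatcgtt
Rpl37, chr15:5116603-5116632, plus strand: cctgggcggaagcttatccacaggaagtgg

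Rpl35a, Rps18, Rplp2, Rps6 and Rps10 have the run exactly at the listed start, Rpl13a has it 2 bases further in, and Rpl22 and Rpl37 have none in this window. Of the 78 members, 56 were matched in the RefSeq promoter table. The run lay at the start in 13 of these 56 (23.2%), against 3.0% of all 27025 genes in the table, and began within 5 bases of it in 28 of the 56, against 21.2%. In the 250 bases upstream, CCGGAAG on either strand, the core bound by ETS family factors, was found in 30.4% of the members and 7.8% of all genes. TATAAA on either strand was found there in 5.4% of the members and 14.3% of all genes. These are matches of letters near listed starts and not mapped sites of transcription or binding.

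Snd1 itself was read first. It stood at 6951, 8446 and 6512 normalized counts in WT, 227, 414 and 359 in KO, and 5373, 7941 and 5595 in KI, and no KO library went against its label. The 9 libraries held 59678412 to 66384374 recovered reads. Transcripts of the exocrine pancreas took 1.45% of reads in WT_3, 0.602% in KI_1 and 6.96% in KI_3, and at most 0.00527% in the other 6; all 25 markers of that list were present in the table. Without those 3 libraries 30 genes passed in KO against WT in place of 1346. That fit has only 3 residual degrees of freedom. Leaving out 1 library without pancreatic transcripts also moved the count, to 533 without WT_1, 611 without WT_2, 501 without KO_2 and 2516 without KO_1. Without WT_3 alone it was 609. The part of pancreatic transcripts in the drop was not tested. Hepatocyte markers, all 14 detected, took 7.45% to 13.2% of reads. In bulk tissue, fewer cells of a type and less RNA per cell cannot be told apart.

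Ribosomal protein transcripts took a similar part of the mRNA in each genotype. The 78 genes together held 1.27%, 1.18% and 1.28% of all reads in WT, 1.0%, 1.25% and 1.44% in KO, and 1.17%, 1.12% and 1.2% in KI. As mean ± SD of 3 libraries, the share was 1.24% ± 0.0517 for WT, 1.23% ± 0.22 for KO and 1.16% ± 0.0415 for KI. The KO libraries enclosed the range of both other groups, so no genotype stood apart by this measure.

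Compared per kilobase of mRNA, 73 of the 78 members lay within a 7.77-fold range, from 5152 to 40020 normalized counts per kb, and the median of all 78 was 11725. The highest levels per kb belonged to Rpl41 at 40020, the shortest of the ribosomal proteins, to Rpl10 at 31500, which joins the large subunit late in its assembly, and then to Rps24, Rpl26 and Rpl7a at 24320, 22110 and 22060. The lowest belonged to Rps10 at 85.4, Rpl6l at 196, Rps4l at 212, Rpl13a at 317 and Rps20 at 1468. Rpl6l and Rps4l are paralogs of Rpl6 and Rps4x. Rps10 and Rpl13a encode core proteins of which a ribosome needs as many as of the others, yet their rows hold far fewer reads than those of other members.

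Most members have near copies elsewhere in the genome, and some of those rows hold many reads. A transcript of 70 of the 78 members aligned to at least 1 other gene of the table at 95% identity or more over at least 150 bases, and for 67 of them such a copy had a mean of at least 10. For most members the copies held little. In 6 members the copies' rows summed to more than the member's own row: they held 86.8% of the joint value for Rpl6l, 79.4% for Rps10, 78.7% for Rps2, 72.0% for Rps18, 61.4% for Rpl29 and 56.0% for Rpl35a. Rps2 has 27 copies in the table and Rpl35a has 12. Rps18-ps6, annotated as protein-coding and 99.1% identical to Rps18 over 545 bases, had a mean of 7059 and so exceeded Rps18 itself at 4209. Of the Rpl35a copies, 5 at 99.7% identity had means between 971 and 1097. How reads that map to several places were counted is not given in the sources used here, so a member's own row can hold fewer or more reads than its gene produced. A sum over a member and its near copies, called the family sum below, depends less on how reads were divided among them, but lacks any reads dropped for having several alignments. The 3 near copies of Rpl6l, namely Gm6136, Gm6807 and Gm7027, are near copies of Rpl6 as well, so the share given for Rpl6l also rests on reads that Rpl6 could claim.

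**Figure D1:**
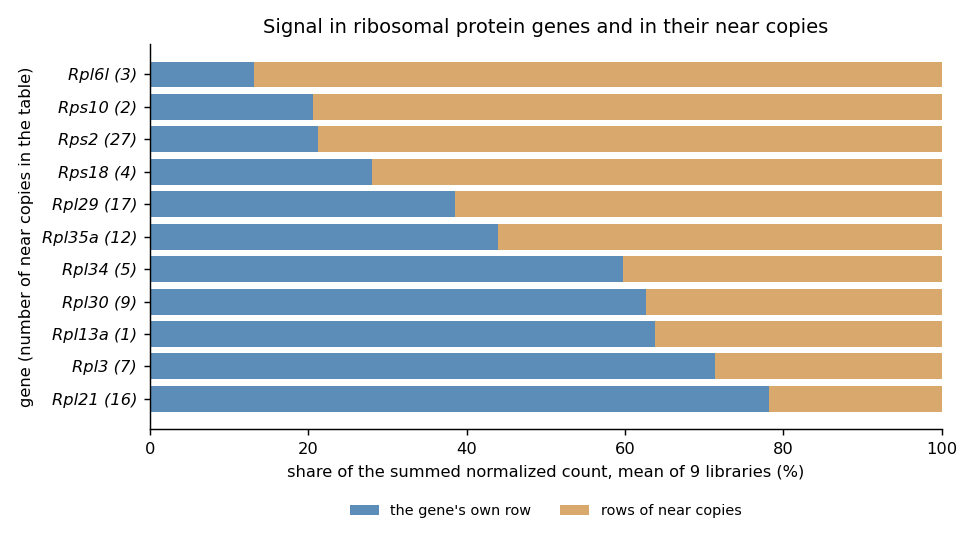
Share of the summed normalized count (%, mean of 9 libraries) found in a member's own row (blue) and in the rows of its near copies (sand), for the 11 members in which copies held over 20%; the number of near copies is in brackets. In 6 members, from Rpl6l at 86.8% to Rpl35a at 56.0%, the copies held the larger part.

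Few ribosomal protein mRNAs were called as changed in KO livers. Of the 78 genes, 2 fell in KO and none rose (limma, adjusted p under 0.05 over all 15238 genes tested), where 4.2% of all genes tested fell and 4.63% rose. The 2 that fell make 2.56% of the members, below the share among all genes. The median log2 fold change of the members was -0.070, against 0.001 over all genes tested, and it was negative under TMM and total scaling as well, at -0.063 with both. The 95% interval of the change lay within 1.5-fold in both directions for 59 members and within 2-fold for 76, and its median width to each side was 1.25-fold. The estimated change was under 1.2-fold in 62. For 19 members the interval reached 1.5-fold, so few calls do not show that every member stood close to its WT level.

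Rpl35a, a protein of the large subunit whose loss causes Diamond-Blackfan anaemia in people, fell the most. Its gene lies at chr16:33056453-33060189 on the plus strand (GRCm38, GENCODE M21). Its normalized counts were 4462, 4179 and 5162 in WT, 3027, 2976 and 3500 in KO, and 4951, 4058 and 5412 in KI. Every KO library was below every WT and every KI library. The log2 fold change in KO against WT was -0.54 ± 0.135 (SE), a 1.45-fold lower level, at a limma adjusted p of 0.0368. For the family sum, which was 10002, 9227 and 11224 in WT and 7222, 7117 and 8326 in KO, the groups did not overlap either, but the log2 fold change of -0.43 did not pass (limma adjusted p = 0.0809).

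Rps18, a protein of the head of the small subunit encoded at chr17:33951999-33956001 on the minus strand, was the other. Its counts were 4869, 4688 and 5058 in WT, 3198, 3416 and 3794 in KO, and 3959, 3830 and 5071 in KI. The KO libraries lay below all the others, and KI_1 and KI_2 fell between KO and WT. The log2 fold change in KO was -0.49 ± 0.126 (SE), 1.41-fold lower, at a limma adjusted p of 0.0387. Its family sum, 18044, 15354 and 16537 in WT against 11844, 12475 and 13683 in KO, gave -0.39 without passing (limma adjusted p = 0.107). Vps52 overlaps Rps18 on the opposite strand at a mean of 1224, and the strand setting of the counting is not given in the sources used here.

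Both calls lay near the threshold. Over 21 alternatives the Rpl35a adjusted p ran from 0.00623 to 0.172 and that of Rps18 from 0.00816 to 0.157, with the sign kept in each. Some of these, such as leaving out a KI library or fitting the 2 groups alone, can change the p but not the fold change. Both were lost without WT_1, WT_2, WT_3, KO_2 or KI_1, without the 3 libraries with pancreatic transcripts (-0.45 for Rpl35a and -0.47 for Rps18), under total scaling and with family sums. Rps18 was lost without KO_1 as well (-0.44). Under edgeR, which called 3.25% of all genes lower, Rpl35a alone passed. Under DESeq2, which called 7.11% lower, Rpl35a, Rps18 and Rpl37 passed.

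The next members in order did not pass. Rpl6l stood at -0.47 (limma adjusted p = 0.183), with 170, 224 and 226 counts in WT and 136, 132 and 179 in KO. Rpl22, an RNA-binding protein of the large subunit, read 5913, 5479 and 6043 in WT, 3548, 4174 and 5399 in KO and 4623, 4446 and 5460 in KI; its log2 fold change was -0.43 (limma adjusted p = 0.112), and without KO_3 it passed at -0.59 (limma adjusted p = 0.0334). No near copy of Rpl22 was found, and its KO libraries all lay below WT. Rpl37, a zinc-binding protein of the large subunit, read 5801, 5761 and 6412 in WT and 4446, 4422 and 5041 in KO, a log2 fold change of -0.37 (limma adjusted p = 0.0878).

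At the other end stood Rps4l at 0.45, Rps12 at 0.44, Rplp2 at 0.41, Rps29 at 0.39 and Rps10 at 0.37, none of which passed. Rps12 and Rps29 encode small-subunit proteins. Rps12 read 8246, 7385 and 8895 in WT and 7619, 12872 and 13655 in KO, so KO_1 lay among the WT libraries and the other two far above them. Rps29 read 5612, 6059 and 7348 in WT and 6756, 9597 and 8743 in KO. Without KO_1 both passed, at 0.70 for Rps12 and 0.54 for Rps29 (limma adjusted p = 0.0212 and 0.0281).

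**Figure D2:**
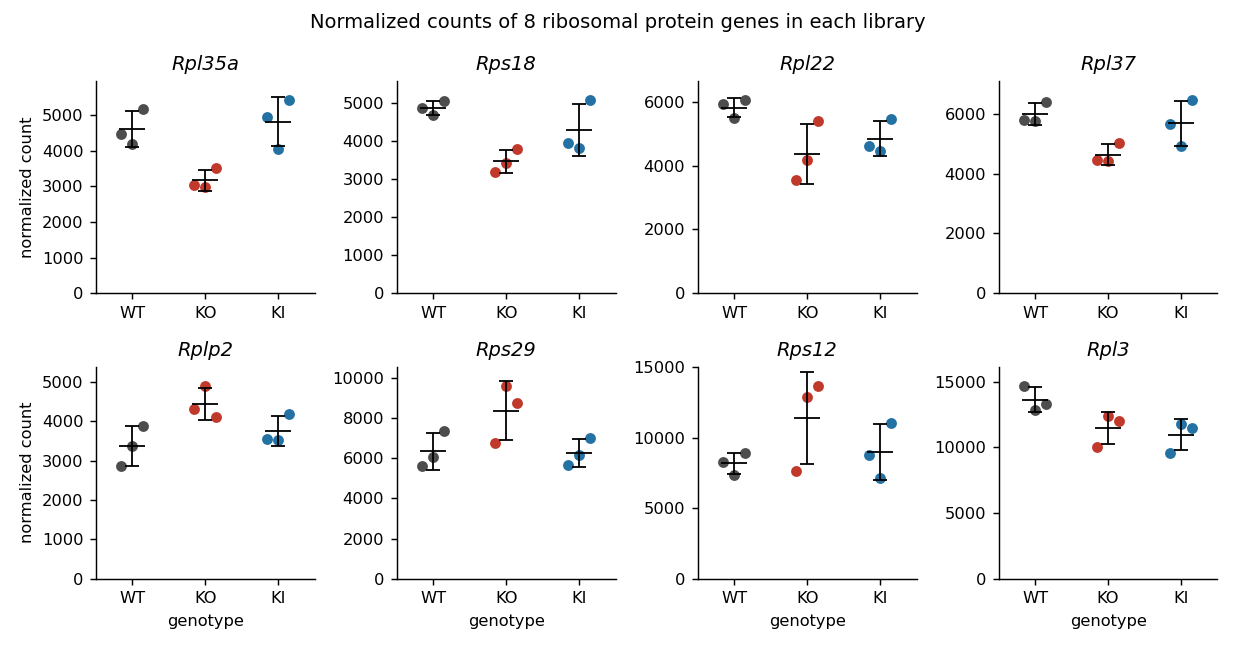
Normalized counts (vertical axis, from 0) of 8 ribosomal protein genes in each library by genotype, with the group mean and SD (n = 3) as a black bar. In Rpl35a and Rps18 all KO points lie under all WT points, while for Rps12 KO_1, at 7619, lies apart from the other KO points at 12872 and 13655.

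The genes of the large subunit, the small subunit and the stalk are given apart. Of the 43 large-subunit genes 6 had a positive log2 fold change in KO, with a median of -0.110. Of the 32 small-subunit genes 16 were positive, with a median of 0.001. All 3 stalk genes were positive, with a median of 0.311. These medians describe genes measured in the same libraries and carry no test. Over 20 alternatives the large-subunit median ran from -0.149 to -0.063 and the stalk median from 0.238 to 0.466, while the small-subunit median ran from -0.066 without KO_3 to 0.179 without KO_1. Some of these alternatives, such as leaving out a KI library or fitting the 2 groups alone, cannot move these medians. Without KO_1, 16 of the 43 large-subunit genes and 24 of the 32 small-subunit genes were positive. The difference between the subunits was not tested.

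The P stalk is the flexible arm of the large subunit that recruits the GTPases of translation. Rplp2, one of its acidic proteins, read 2862, 3370 and 3866 in WT, 4318, 4891 and 4104 in KO and 3554, 3519 and 4189 in KI. Rplp2 was the single member of the 78 whose KO libraries all exceeded WT, with a log2 fold change of 0.41, an SE of 0.134 and a limma adjusted p of 0.0913. Its partner Rplp1 read 8417, 9554 and 12355 in WT and 10782, 13718 and 12837 in KO, and Rplp0, which anchors both to the ribosome, 21194, 18575 and 19157 against 21052, 26494 and 22153. Their log2 fold changes of 0.31 and 0.24 did not pass (limma adjusted p = 0.318 and 0.315), and their groups overlapped.

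Counted by separation, 13 members (16.7%) had every KO library below every WT library and 1 had every KO library above, where 14.2% and 15% of all genes tested did. The 13 were 11 of the large subunit and 2 of the small one. At an unadjusted p under 0.05, limma had 2 members higher and 5 lower, next to 12.8% and 12.2% of all genes tested.

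**Figure D3:**
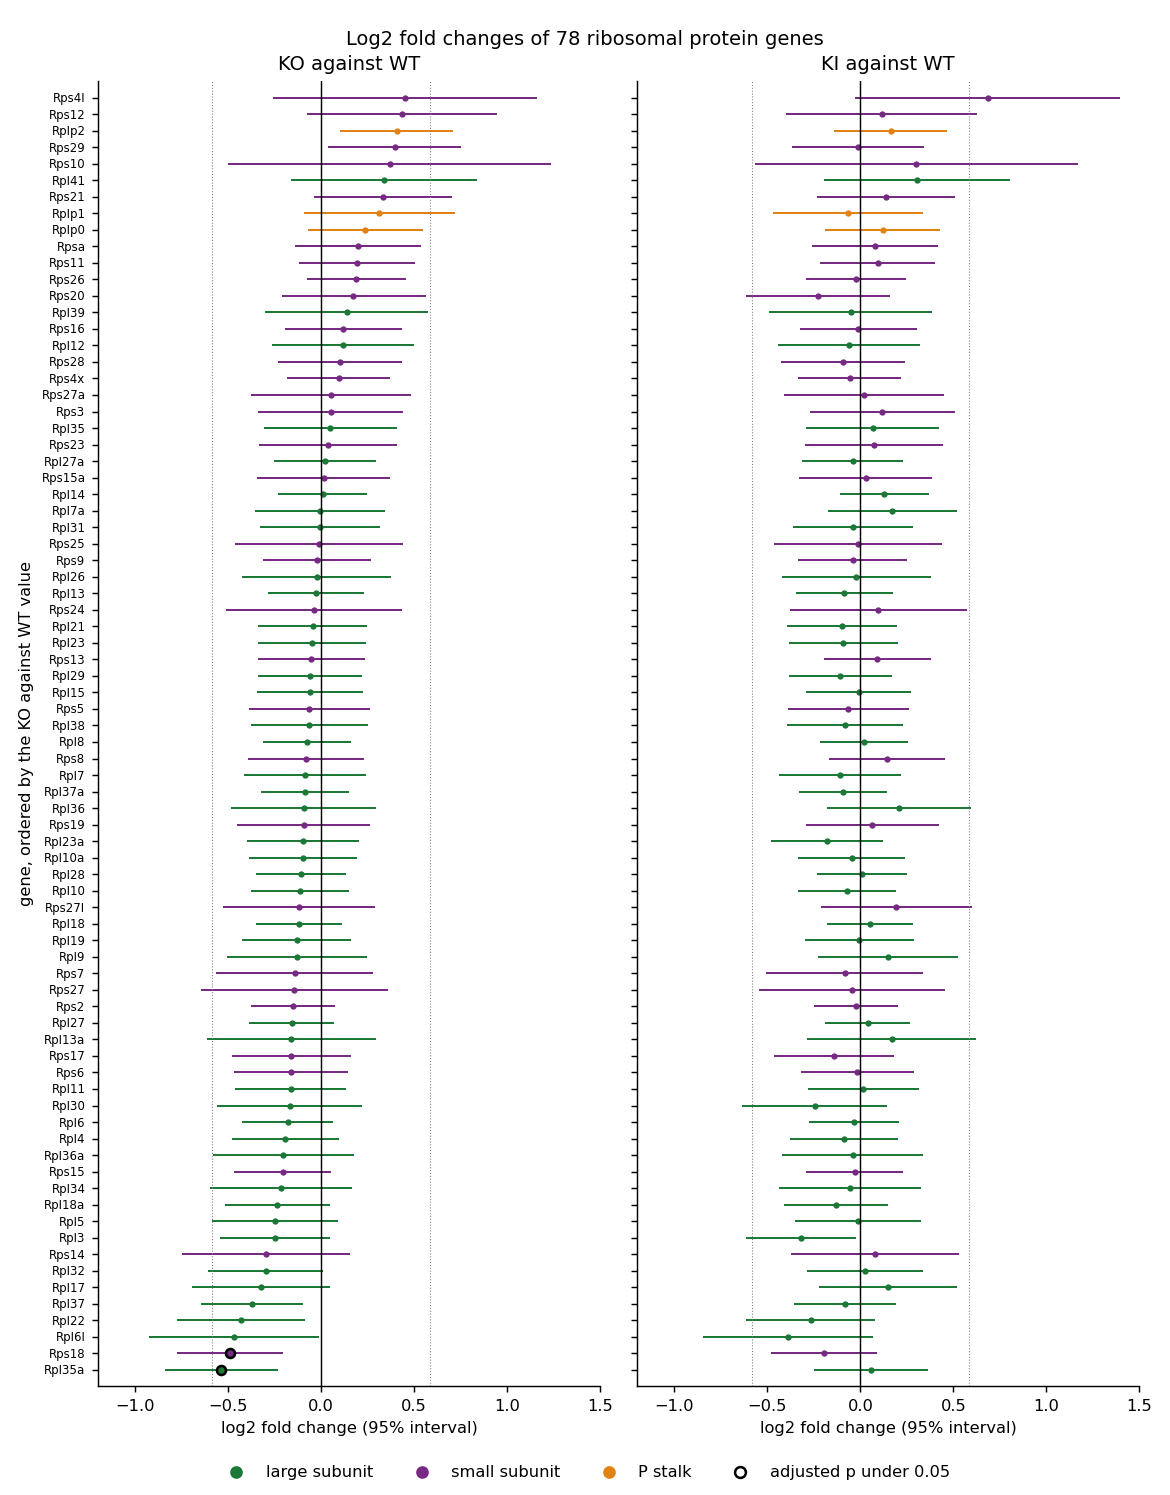
Log2 fold change (horizontal axis) with its 95% interval for each of the 78 genes in KO against WT (left) and KI against WT (right), ordered by the KO value; colours give the subunit, black rings an adjusted p under 0.05, and dotted lines a 1.5-fold change. Rings are on Rpl35a at -0.54 and Rps18 at -0.49 on the left and on no gene on the right.

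Members with known roles outside the ribosome, or with a paralog, did not pass in KO. Rpl5 and Rpl11, which join 5S rRNA in the particle that inhibits MDM2, stood at -0.25 and -0.17 in KO (limma adjusted p = 0.342 and 0.488). Rps6, the S6 kinase substrate, read 19061, 15553 and 16812 in WT, 13601, 16108 and 16156 in KO and 17631, 15078 and 18138 in KI, with overlapping groups and a log2 fold change in KO of -0.17 (limma adjusted p = 0.5). Rpsa, the laminin receptor protein, stood at 0.20, and Rps27a, which is made as a fusion with ubiquitin, at 0.05. Rps19, the gene most often mutated in Diamond-Blackfan anaemia, stood at -0.10. Rps27 and its p53-induced paralog Rps27l stood at -0.15 and -0.12. Rpl39 and Rpl36a, which have paralogs in the genome, stood at 0.14 and -0.20.

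Arginine methylation is the mark a Tudor domain reads, and some ribosomal proteins carry it. Rps2, methylated by PRMT3, stood at -0.15 in KO and -0.02 in KI against WT. Rps10, methylated by PRMT5, stood at 0.37 and 0.30 on counts of only 29 to 71, and its family sum gave -0.17 in KO. Neither member passed (limma). The methyltransferase genes Prmt1, Prmt3 and Prmt5 stood at -0.13, -0.12 and 0.04 in KO and also did not pass. With Snd1 and Wdr77, the partner of Prmt5, these make a list of 5. In KI against KO 2 of the 5 rose (40%, where 3.6% of all genes tested did), Snd1 itself and Wdr77. Wdr77 rose by 0.52 on the log2 scale (limma adjusted p = 0.0326). Its call was not followed over the alternatives.

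The Tudor domain knock-in showed no called change in these genes. In KI against WT limma called 0 of 78 members, where 0.0263% of all genes tested passed. At an unadjusted p under 0.05 it had 1 member, Rpl3, and 11.6% of all genes tested; edgeR and DESeq2 called 0 members each, next to 0.00656% and 2.53% of all genes. The median log2 fold change of the members was -0.015 against 0.004 over all genes. Without the 3 libraries with pancreatic transcripts, which leaves KI_2 alone in its group, that median was -0.157, and 38 of the 43 large-subunit and 28 of the 32 small-subunit genes were negative. The 95% interval lay within 1.5-fold for 66 members and within 2-fold for 76, and 72 members had an estimated change under 1.2-fold.

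Rpl3, which reaches to the peptidyl transferase centre, read 14688, 12892 and 13326 in WT, 9601, 11781 and 11517 in KI and 10055, 12406 and 11996 in KO. All KI libraries lay below all WT libraries, and so did all KO libraries. The log2 fold change in KI was -0.32 (limma adjusted p = 0.385). The other low values were Rpl6l at -0.39, Rpl22 at -0.27, Rpl30 at -0.25 and Rps20 at -0.23. The highest were Rps4l at 0.68, Rpl41 at 0.31, Rps10 at 0.30, Rpl36 at 0.21 and Rps27l at 0.19. Rps4l had 80, 128 and 180 counts in WT and 237, 153 and 212 in KI, so the groups overlapped (limma adjusted p = 0.445). In 4 members (5.13%) all KI libraries were below WT, and in none were they above, where 10.2% and 9.47% of all genes tested were.

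Set against the knockout, Rpl35a was the single called gene. In KI against KO it rose and none fell (limma), 1 of 78 or 1.28% of members, where 3.6% of all genes tested rose and 4.85% fell. Rpl35a was 1.51-fold higher in KI, at a log2 fold change of 0.60 (limma adjusted p = 0.0261), and its family sum passed too, at 0.52 (limma adjusted p = 0.043). The KO libraries of this comparison are those already set against WT. Without the 3 libraries with pancreatic transcripts, which leaves 1 KI library assumed to vary like the other groups, the Rpl35a value was 0.36 and did not pass (limma adjusted p = 0.471). The call was also lost without KO_2 (0.55), KI_1 (0.57) or KI_3 (0.51), in a fit of the 2 groups alone and under total scaling. DESeq2, which called 6.63% of all genes higher, called Rpl17 as well.

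Rpl17, a protein near the exit of the peptide tunnel, read 13751, 12633 and 14650 in WT, 9480, 11107 and 12304 in KO and 15883, 12046 and 18064 in KI. KI_2 overlapped the KO range, and the log2 fold change in KI against KO was 0.47 (limma adjusted p = 0.107); without KI_2 it passed at 0.64 (limma adjusted p = 0.0406). Next came Rps14 at 0.37, Rpl13a at 0.33 and Rpl32 at 0.32. Rps14 overlaps Ndst1 on the opposite strand, whose own mean of 9122 is close to that of Rps14, so its reads are uncertain in the same way as those of Rps18. The lowest were Rps29 at -0.41, Rps20 at -0.40, Rplp1 at -0.38, Rps12 at -0.32 and Rplp2 at -0.24. Without KO_1, Rps12, Rps20 and Rps29 passed as lower in KI, at -0.59, -0.61 and -0.55 (limma adjusted p = 0.0478, 0.00783 and 0.0271). In that fit 1066 of all 15238 genes tested were called lower. All KI libraries exceeded all KO libraries in 7 members (8.97%), and the reverse held in none, where 12.3% and 14.1% of all genes tested did so. The median of the members was 0.047 against 0.011 over all genes. Under total scaling it was -0.058, as the median of all genes moved to -0.093, so the members' median relative to all genes kept its sign.

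Within a genotype, most ribosomal protein genes shared the order of the libraries. The mean log2 deviation of the 78 genes from the WT mean was 0, -0.08 and 0.08 in WT, -0.25, 0.04 and 0.08 in KO, and -0.02, -0.16 and 0.18 in KI. KO_1 was the lowest of the 9 libraries for 49 members (62.8%, against 9.8% of all genes tested) and the lowest KO library for 68 (87.2% against 35.4%). KI_3 was the highest of the 9 for 35 members (44.9% against 11.1%) and the highest KI library for 76 (97.4% against 29.7%). As a share of all reads, however, the members held 1.2% in KI_3. That was under WT_1, WT_3, KO_2 and KO_3, at 1.27%, 1.28%, 1.25% and 1.44%. The place of KI_3 among the 9 libraries thus differs between normalized counts and shares of reads. KI_2 was the lowest KI library for 61 (78.2% against 33.5%). After each group's mean was taken out, the first principal component held 78.4% of the variance of the 74 members with a mean of at least 1000. Over all 5507 genes at that level it held 81.8%. Genes that differ strongly between libraries can dominate such a share. Pancreatic transcripts, for example, took 0.00516% of reads in KI_2 and 6.96% in KI_3. These shares therefore do not show whether co-movement within genotypes was particular to the ribosomal protein genes, which was not tested. Within each genotype, the distance from the lowest to the highest mean deviation exceeded the size of the median log2 fold changes between genotypes.

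The sign of the KO median turned on KO_1. Without that library the median was 0.022 in place of -0.070. KO_1 lay below all WT libraries in 63 of the 78 genes (80.8%, against 30.7% of all genes tested). KO_2 and KO_3 both did so in 13 (16.7% against 23.6%). The large-subunit genes deviated from WT on average by -0.29, -0.07 and -0.02 in the KO libraries and the small-subunit genes by -0.25, 0.15 and 0.19. In KO_2 and KO_3 the small-subunit mean thus lay above the large-subunit mean by more than in KO_1. The corresponding large-subunit means were -0.05, -0.17 and 0.13 in KI, next to 0.02, -0.15 and 0.24 for the small subunit.

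**Figure D4:**
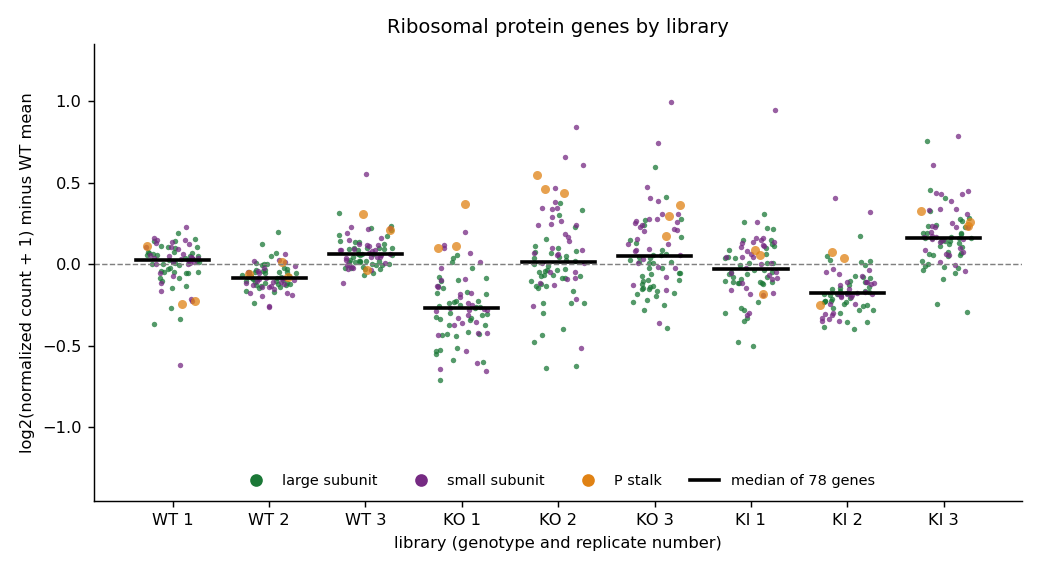
Difference between log2(normalized count + 1) and the gene's WT mean (vertical axis) for 78 ribosomal protein genes in each of 9 libraries; points are genes coloured by subunit and bars are medians. KO 1 lies below the WT libraries with 63 genes under all 3 of them. KI 3 lies high on this scale, though not by share of all reads. The stalk genes lie above the bar in every KO library.

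Other transcripts also set these libraries apart. Acute phase genes, secreted by hepatocytes in inflammation, took 8.66% of reads in KO_1, 21.7% in KO_2 and 22.4% in KO_3, against 1.84% to 2.78% in the other 6. Of 26 such genes 22 rose in KO (limma), led by Saa1, Saa2, Orm2 and Lcn2, and these 4 alone passed without the 3 libraries with pancreatic transcripts. The 22 made 84.6% of the acute phase list, where 4.63% of all genes tested rose. Of 15 neutrophil and monocyte markers 11 were in the table and 9 were tested, and 2 of these (22.2%), Prtn3 and Mmp8, rose in KO. Their summed share of reads ran from 0.000229% to 0.000638% in WT, 0.000841% to 0.00429% in KO and 0.000338% to 0.000815% in KI, with Elane at 0 in all WT libraries and Ngp at 0 in all KI libraries. KO_1 had the lowest share of both lists among the KO libraries as well as the lowest ribosomal protein level. KI_3 had the largest pancreatic share. The 13 mitochondrially encoded genes used to judge RNA quality all had negative estimates in KO and in KI against WT, with medians of -0.256 and -0.267, and none passed (limma). Their mean log2 deviation by library was 0.15, 0 and -0.16 in WT, -0.36, -0.23 and -0.18 in KO, and -0.52, -0.16 and -0.24 in KI, so KO_1 was the lowest KO library here too. The part of these transcripts in the values above was not tested.

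A short list holds ribosomal proteins and relatives of them, mostly outside the name rule. None of its 10 tested genes passed in any comparison (limma), and their median in KO was -0.083. Fau, which yields a small-subunit protein, read 7708, 7863 and 7952 in WT and 6712, 6227 and 7119 in KO (log2 fold change -0.23, limma adjusted p = 0.238). Rack1, the scaffold on the small subunit, stood at 0.01.

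Other mRNAs known to carry the TOP motif, mostly for translation factors, included several that fell in KO. Of a list of 26 such genes 8 fell and none rose (limma), or 30.8%, where 4.2% of all genes tested fell, and the median was -0.284. The difference from the ribosomal protein genes was not tested, and this list was chosen with earlier results of these data known. Eif4a2, an RNA helicase of translation initiation, read 15251, 12513 and 14723 in WT, 6890, 5500 and 6559 in KO and 11866, 11318 and 11578 in KI (log2 fold change in KO -1.17, limma adjusted p = 8.13e-04). All KO libraries lay far under all others. Gas5, a snoRNA host RNA, read 2139, 2101 and 2432 in WT and 937, 1110 and 1316 in KO (limma adjusted p = 0.00309). Eif4b, the cofactor of that helicase, stood at -1.01 and Eif3e, a subunit of initiation factor 3, at -0.67 (limma adjusted p = 0.00568 and 0.0119). The remaining called genes were Eif3m, Naca, Npm1 and Cct4. Lists described below share genes with this one, so their counts are not independent of it. Eif4a2, Eif4b, Eif3e, Eif3m, Naca and Npm1 are counted again there. The abundant elongation factor mRNA Eef1a1 stood at -0.35 and did not pass under limma, nor did any other of 9 elongation factor genes tested. DESeq2 called Eef1a1, Eef1d and Eef2 lower, limma called Eef1d under TMM scaling, with a pseudocount of 10 and with a mean of at least 50, and without KO_1 it called Eef1d and Eef2. The count of 8 was 3 without WT_1, WT_3 or KO_2, 5 under total scaling and in a fit of the 2 groups alone, and 0 without the 3 libraries with pancreatic transcripts, where the median was -0.269. In KI against KO, 4 of the 26 rose (15.4%, where 3.6% of all genes tested did), namely Eif4a2, Gas5, Eif3m and Naca. Eif4a2 alone passed there without WT_1, WT_2, KO_2, KI_1 or KI_3, under total scaling and in a fit of the 2 groups alone, 2 genes passed without WT_3 or KI_2, with edgeR and with no filter on low values, and none without the 3 libraries. Without KO_1 the counts were 6 higher and 1 lower, and with DESeq2 7 and 1. Over all genes tested these counts were 1235 and 1066 without KO_1, and 1010 and 1277 with DESeq2. For KI against WT none passed under limma or edgeR, and DESeq2 called 1, where it called 2.53% of all genes. At an unadjusted p under 0.05 limma had 4 lower and 0 higher, where 6.31% and 5.3% of all genes tested were.

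Of 36 initiation factor genes 4 fell in KO (11.1%, where 4.2% of all genes tested did) and none rose (limma), and these were Eif4a2, Eif4b, Eif3e and Eif3m. The count was 2 without WT_1, WT_3 or KO_2 and 0 without the 3 libraries with pancreatic transcripts. None of 24 genes of mTORC1 signalling and TOP control passed in KO against WT (limma). At an unadjusted p under 0.05, 1 was higher and 5 lower, where 12.8% and 12.2% of all genes tested were. edgeR called 0 and DESeq2 2, where they called 7.94% and 15.1% of all genes. Without KO_1 limma called 5 of the 24, where it called 2516 of all 15238 genes. The mTORC1 activator Rheb was higher in KI than in KO, at 0.40 (limma adjusted p = 0.039), a call that was lost without any 1 of WT_1, WT_2, KO_2, KO_3 and the KI libraries, without the 3 libraries, under total scaling and in a fit of the 2 groups alone. Among 16 chaperones and import receptors of ribosomal proteins 3 fell in KO (18.8%, where 4.2% of all genes tested did): Ipo5 at -0.85, Ipo7 at -0.43 and Naca at -0.59 (limma adjusted p = 0.00339, 0.033 and 0.0162). Without WT_1, WT_3 or KO_2 only Ipo5 passed, and none did without the 3 libraries. All 3 were higher in KI than in KO as well (18.8%, where 3.6% of all genes tested were). None passed there without WT_1, KO_2, KO_3 or any 1 of the KI libraries. The same held under total scaling and in a fit of the 2 groups alone.

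Nucleolar factors that assemble ribosomes included genes called in both directions in KO. Of 53 tested 2 rose (3.77%) and 3 fell (5.66%) under limma, where 4.63% and 4.2% of all genes tested did, with a median of 0.081. Npm1 and Ncl, abundant nucleolar proteins, fell by 0.55 and 0.38 on the log2 scale (limma adjusted p = 0.0234 and 0.0418), and Nop10, of the H/ACA particles, by 0.48, while Nop58, of the box C/D particles, and Tsr1 rose. Without WT_1, WT_3 or KO_2 none of the 53 passed, nor without the 3 libraries with pancreatic transcripts, while 4 rose and 5 fell without KO_1. Mrto4, Ncl, Nop10 and Wdr12 rose in KI against KO (7.55% of the 53, where 3.6% of all genes tested did). None of the 53 passed there without KO_2 or KI_3, under total scaling, in a fit of the 2 groups alone or without the 3 libraries, and 12 rose without KO_1. In KI against WT their median was 0.272 while that of the ribosomal protein genes was -0.015. None passed under limma or edgeR. At an unadjusted p under 0.05 limma had 23 higher and 1 lower, where 5.3% and 6.31% of all genes tested were. DESeq2 called 11, all higher, where it called 1.13% of all genes higher.

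Mitochondrial ribosomal protein genes, the other ribosome of the cell, had 5 of 79 lower in KO (6.33%) and none higher (limma), where 4.2% and 4.63% of all genes tested were, with a median of -0.130. Mrpl23, Mrpl1, Mrpl9 and Mrpl47 had the smallest adjusted p. Mrpl23 read 1138, 1248 and 1040 in WT, 809, 746 and 729 in KO and 1039, 1207 and 1146 in KI, at -0.58 (limma adjusted p = 0.0139). In KI against KO 6 of the 79 were higher (7.59%) and none lower, where 3.6% and 4.85% of all genes tested were. The median was 0.185, against 0.011 over all genes. In KO against WT none was called without WT_1, WT_2 or KO_2 and 10 were lower without KO_1. In KI against KO 1 was called without KO_2 or KI_3 and 15 were higher without KO_1. Without the 3 libraries with pancreatic transcripts none was called in either.

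Cdkn1a, the p53 target that responds when free Rpl5 and Rpl11 hold MDM2, read 64, 106 and 31 in WT, 683, 948 and 1855 in KO and 106, 58 and 53 in KI, a log2 fold change in KO of 4.13 (limma adjusted p = 0.00134). Trp53 and Mdm2 stood at 0.06 and 0.30 and did not pass (limma adjusted p = 0.841 and 0.173). Cdkn1a was the single called gene of the 9 in that list (11.1%, where 4.63% of all genes tested rose in KO and 4.2% fell). The part of Rpl5 and Rpl11 in its level was not tested.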

How the data were processed

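Liver mRNA was sequenced from 9 stranded libraries, per the labels' protocols. The submitters' processing notes name TopHat2, Bowtie2 and featureCounts and the build GRCm38; versions, annotation, strand setting and the treatment of reads with several alignments are not given in the sources used here. The authors deposited 1 table of normalized counts, a signal in which each value is a gene's read count divided by 1 size factor per library. Undoing that division gave whole reads, within 0.0051 deposited units, for 99.995% or more of the entries of any library (5 entries in all were not whole). In WT_3 the size factor is close to 1, so whole values say less about the division there; it was converted in the same way. Replicate numbers are those of the titles, which differ from the numbers in the column names. No column was left without a sample.

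Values were tested as log2(value + 1) with limma 3.58.1 (R 4.3.3, variance trend, all 9 libraries in 1 fit) in the 15238 genes with a mean of at least 10, two-sided, with Benjamini-Hochberg adjustment over all of them and calls at an adjusted p under 0.05. Fold changes are on that scale and carry standard errors or 95% intervals from the fit. edgeR 4.0.16 and DESeq2 1.42.0 were run on the recovered reads, and their calls and those of other alternatives are given where they differ. edgeR called 7.94% of all genes in KO against WT and DESeq2 15.1%. The limma script was tested on simulated counts. Near copies were found with blastn 2.17.0 and GENCODE M21 transcripts, using the shortest complete consensus coding transcript of each member, which also gave lengths per kb. Figures were drawn in Python 3.11 with matplotlib 3.10.9.

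The members and lists were chosen with earlier results of these data known. Named are Snd1, the called members, the 5 members at each end of each comparison, those at each end of the levels per kb, those nearest the limit of 10, members with a listed role and, per list, up to 4 called genes with the smallest adjusted p; Tsr1, Cct4, Eef1a1, Eef1d, Eef2, Fau, Rack1, Prmt1, Prmt3, Prmt5, Trp53 and Mdm2 were named beyond that, after their values were seen. Lists counted but not described, whose genes are not named, were the integrated stress response and marker lists of other liver cells. In KO against WT limma called 1 of 17 stress response genes (5.88%), 3 of 13 Kupffer cell markers (23.1%) and 1 of 5 cholangiocyte markers (20%) higher. It called 1 of 14 hepatocyte markers lower (7.14%). It called 0 of 9 lymphocyte, 0 of 8 erythroid, 0 of 11 endothelial and stellate and 0 of 25 pancreatic markers. Of all genes tested 4.63% were called higher and 4.2% lower.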

Additional observations from a re-analysis of the deposited data

How the results depend on the processing

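In KO against WT, 2 ribosomal protein genes were called and in KI against KO 1. In KO against WT the count was 0 under total scaling, without the 3 libraries with pancreatic transcripts and with family sums, a setting chosen after seeing the data, 1 with edgeR, and 0 to 3 when each library was left out in turn. In KI against KO it was 0 under total scaling, in a fit of the 2 groups alone and without the 3 libraries, 2 with DESeq2, and 0 to 4 with each library left out. In KI against WT it was 0 under every alternative run. The median log2 fold change of the members ran from -0.116 to 0.022 in KO against WT, -0.098 to 0.072 in KI against WT and -0.089 to 0.118 in KI against KO with each library left out, and was -0.157 in KI against WT and -0.129 in KI against KO without the 3 libraries. Of the 2094 alternatives of 101 single values, 1902 kept their side of the threshold or stayed near their value. Another 24 lost a call, 10 gained one and 158 moved, most of these being list counts. Most single values were not called in the main fit and so had no call to lose, and some alternatives cannot move a fold change. Over 21 alternatives the Rpl35a call held in 13 and the Rps18 call in 11 in KO against WT. The Rpl35a call in KI against KO held in 15.

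Over all genes, 1346 were called in KO against WT, 4 in KI against WT and 1287 in KI against KO. With DESeq2 these counts were 2294, 385 and 2287, with only the 2 groups compared 871, 28 and 608, and without the 3 libraries 30, 0 and 4, on 3 residual degrees of freedom. In KI against WT 8 were called with no filter on low values, 7 with a mean of at least 50, 7 under total scaling and 1 with edgeR. Each library left out in turn gave 501 to 2516, 0 to 35 and 400 to 2301. The highest of each came without KO_1. That fit called 1104 genes higher and 1412 lower in KO against WT, and 1235 and 1066 in KI against KO. Counts given above without KO_1 stand beside these. The cause of these shifts was not tested.

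The titles give the groups the same replicate numbers, but nothing says that a number marks a litter or batch. The deviations of same-numbered libraries correlated at -0.115, 0.075 and 0.081 in KO and WT, -0.136, 0.531 and 0.568 in KI and WT, and -0.024, 0.045 and 0.203 in KI and KO. Libraries with different numbers ran from -0.622 to 0.319 in KI and WT. The numbers in the column names give the same pairs for KI and WT. They gave -0.027, 0.075 and 0.128 in KO and WT, and -0.152, 0.045 and 0.045 in KI and KO. In no comparison were all 3 over 0.1 by either numbering, so the numbers were not taken to pair the samples. That cut was a choice, and pairing in KI and WT was not tested further. With the replicate block 1551 genes and 3 ribosomal protein genes (Rpl35a, Rps18 and Rpl37) were called in KO against WT, 3 genes and 0 in KI against WT, and 1500 genes and 1 in KI against KO. With 3 libraries a group, no test for outlying samples was made. Changes under about 1.25-fold lie within the median interval of a member.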
